A study of Mus musculus with 18 samples.

Results

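The 33 genes described here cover sugar uptake, glycolysis, the handling of its end products and the pentose phosphate pathway. They were taken by symbol from a table of 21954 mouse genes, and all 33 were found and passed the filter on low counts that left 12514 genes for testing. By role they are 3 sugar transporters, 12 genes of upper glycolysis, 6 of lower glycolysis, 5 that act on lactate or pyruvate and 7 of the pentose phosphate pathway. RNA came from mouse bone marrow derived macrophages labelled as L13a knockout (KO) or as wild type controls (WT), in 6 groups of 3 libraries each. The groups were KO and WT cells treated with IFN, KO and WT cells treated with IL4, and KO and WT cells left untreated. Rpl13a encodes L13a, a ribosomal protein. The labels call the cytokines M1 and M2 cytokines. The type of interferon, doses, times, the mice's age and strain, and how the knockout was made are not given in the sources used here. Libraries are numbered as in their titles: 1 to 3 untreated, 4 to 6 IFN and 7 to 9 IL4. The labels do not say whether libraries of 1 group are separate mice or cultures, so p-values measure the spread between these libraries, which may be technical.

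Glycolysis turns glucose into pyruvate in the cytosol, and lactate dehydrogenase can reduce that pyruvate to lactate, which leaves the cell. The pentose phosphate pathway branches off at glucose 6-phosphate: its oxidative arm makes NADPH and its non-oxidative arm exchanges sugar phosphates with glycolysis. Macrophages activated towards the M1 state are known for high glycolysis with lactate output, whereas those activated by IL4 are known for oxidative metabolism. Several steps are catalysed by isozymes from separate genes, so that the makeup of a step can change as well as its sum.

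The libraries held between 18098711 and 28477342 expected counts, the read numbers that RSEM estimates per gene. Levels are given as TMM-scaled CPM, counts relative to the depth of their library, for comparisons between libraries, and in the deposited TPM, which are also scaled by transcript length, for comparisons between genes. A gene is called at an adjusted p under 0.05 over all 12514 genes in edgeR's quasi-likelihood test. Rpl13a averaged 287 ± 123 CPM in KO and 536 ± 91.3 CPM in WT cells under IFN, 382 ± 204 and 736 ± 135 CPM under IL4, and 253 ± 130.0 and 703 ± 73.8 CPM untreated (SD, n = 3 each). It was lower in KO cells over the 3 treatments (log2 -1.11, SE 0.225, adjusted p = 0.046) but passed the test in no single treatment, and KO library 9 with 606 CPM lay above WT library 7 with 598 CPM. Macrophage markers were abundant in every library, with 7029 to 11703 CPM over 8 genes. Fibroblast markers (12 genes) summed to 562, 606 and 597 CPM in WT untreated libraries and to 25.7 to 561 CPM in the other 15. Dendritic cell markers (6 genes) summed to 42.9 to 126 CPM under IFN, mostly from Clec9a, and to 0.954 to 6.19 CPM otherwise; Flt3 and Cd209a were at 0 in WT IFN libraries. Markers of dividing cells (5 genes) summed to 175, 172, 167 and 186 CPM in KO libraries 1, 4, 5 and 7 and to 454 to 756 CPM in the others. Sums of neutrophil, T cell and erythroid markers stayed at or under 4.02 CPM, and those of B cell markers at or under 9.98 CPM. Transcripts of the Y chromosome passed 10 CPM in 0 of 9 KO libraries and 5 of 9 WT libraries. WT untreated libraries 2 and 3 were more alike than any other pair of one group (chi-square over degrees of freedom 5.97, against 49.8 to 181 in other pairs), and were kept as 2 libraries. In bulk RNA, fewer cells of a type and less RNA per cell cannot be told apart. Apart from a fit with the Y-linked transcripts as a covariate, the part of these differences in the results was not tested.

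Mean levels of the 33 genes ran up to 2645 TPM (Pkm) from 1.51 TPM (Eno2) in KO IFN cells, and up to 2795 TPM (Pkm) from 2.11 TPM (Eno2) in WT IFN cells. Pkm (pyruvate kinase, the last step of glycolysis) and Aldoa (the main aldolase) held the top 2 places in all 6 groups. Pkm averaged 2645 ± 291 TPM in KO and 2795 ± 337 TPM in WT cells under IFN, 1737 ± 187 and 1666 ± 118 TPM under IL4, and 2614 ± 769 and 1847 ± 445 TPM untreated (SD, n = 3 each). In WT untreated cells Aldoa followed with 1817 ± 209 TPM, then Taldo1 (transaldolase) with 1440.0 ± 247, Eno1 (enolase) with 903 ± 236, Ldha (lactate dehydrogenase A) with 788 ± 193 and Pgk1 (phosphoglycerate kinase) with 503 ± 111 TPM. Neighbours in this order differed by no more than the sum of their SDs, except Taldo1 and Eno1. The lowest places in that group went to Pfkfb3, Ldhb, Slc2a3, Eno2 and Eno3, between 4.53 and 7.64 TPM on average. The heart-type Ldhb and the neuronal and muscle enolases Eno2 and Eno3 were minor forms: Eno1 made up 98.8% ± 0.804 of enolase TPM in WT untreated cells and Aldoa 96.9% ± 1.01 of that of Aldoa and Aldoc. Hk3 ranked 4 in KO and 3 in WT IFN cells among the 33, with 947 ± 189 and 1019 ± 177 TPM.

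**Figure D1:**
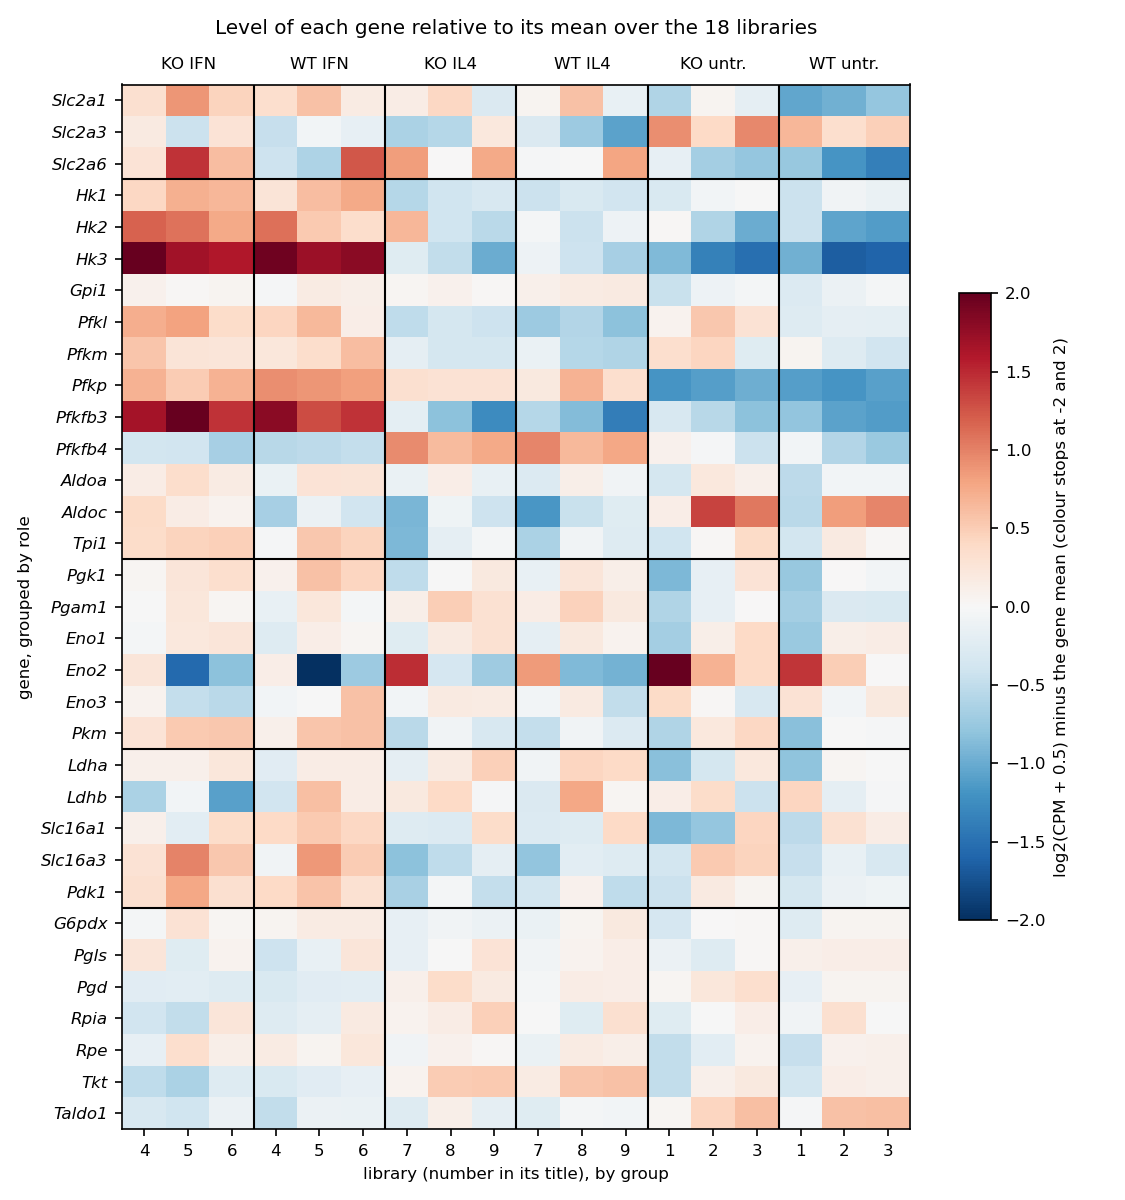
Level of each of the 33 genes (rows, grouped by role) in each of the 18 libraries (columns), as log2(CPM + 0.5) minus the mean of the gene over all libraries. Hk3 and Pfkfb3 are high in all 6 IFN libraries, Pfkfb4 in all 6 IL4 libraries, and Pfkp is low in all 6 untreated libraries.

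The first question was which of these genes answered IFN. In KO cells 7 of 33 rose and 2 fell, and in WT cells 10 rose and 1 fell. Over all tested genes 12.6% were called higher and 8.93% lower in KO cells, and 11.1% higher and 7.55% lower in WT cells. The members' calls are 27.3% of the list in KO and 33.3% in WT cells, where 21.6% and 18.6% of all tested genes were called. Both lists of calls hold 8 genes: Slc2a1, Slc2a6, Hk1, Hk2, Hk3, Pfkp and Pfkfb3 rose and Taldo1 fell in both genotypes. The rises lie at uptake and at the hexokinase and phosphofructokinase steps, where 5 of 12 upper glycolysis genes rose in KO and 7 of 12 in WT cells. Of the 6 genes of lower glycolysis edgeR called 0 in either genotype. At an unadjusted p under 0.05 it gave 1 in KO and 3 in WT cells, beside 32.7% and 30.9% of all tested genes. DESeq2 called 1 in KO and 0 in WT cells, beside 3075 and 2774 of all 12514 genes. These 6 do not include Gapdh, a lower glycolysis gene counted with the neighbouring genes below. Gapdh gave 2626, 2931 and 3053 CPM in KO IFN libraries, against 1114, 1979 and 2373 CPM untreated. In WT cells it gave 2251, 3319 and 3038 CPM, against 1238, 2005 and 1988 CPM, again without overlap. No test result is given for Gapdh here. The lowest-numbered library was the lowest in each of these groups, an order described below for other abundant enzymes. The median log2 fold change of the 33 was 0.31 in KO and 0.34 in WT cells, beside -0.03 and -0.02 over all tested genes. On unscaled TPM the median turns to -0.06 in KO cells, where that of all genes also moves to -0.31, and stays at 0.25 in WT cells. IFN and untreated libraries did not overlap for 13 of 33 genes in KO and 20 of 33 in WT cells, beside 34.4% and 37.3% of all tested genes.

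Hexokinases trap glucose in the cell as glucose 6-phosphate, and all 3 isozymes rose. Hk3 (hexokinase 3, the form typical of myeloid cells; chr13:55005985-55021385, minus strand) gave 2256, 1686 and 1586 CPM in KO IFN libraries, against 284, 204 and 183 CPM in KO untreated libraries. In WT cells it gave 2019, 1719.5 and 1837 CPM under IFN, against 268, 167 and 173 CPM untreated. Each IFN library lay several times above each untreated one, a rise of 8.24-fold in KO (log2 3.04, SE 0.259, adjusted p = 4.65e-07) and 9.16-fold in WT cells (log2 3.20, SE 0.261, adjusted p = 3.28e-07). Hk2 (the inducible hexokinase 2) reached 154, 145 and 115 CPM in KO IFN libraries, against 69.1, 44.8 and 34.0 CPM untreated. For WT cells its values were 146, 98.4 and 87.2 CPM under IFN, against 50.2, 32.4 and 31.2 CPM untreated. Groups did not overlap, and the rise passed in KO (log2 1.48, SE 0.325, adjusted p = 0.00364) and WT cells (log2 1.54, SE 0.327, adjusted p = 0.00327). Hk1 (hexokinase 1, the widely expressed form) stood at 204, 251 and 243 CPM in KO IFN libraries, against 124, 147 and 152 CPM untreated. WT cells had 184, 236 and 259 CPM of Hk1 under IFN, against 113, 145 and 139 CPM untreated. Its rise was the smallest of the 3 hexokinases in both genotypes (log2 0.72, SE 0.144, adjusted p = 0.00184 in KO; log2 0.77, SE 0.144, adjusted p = 0.00122 in WT), again with no overlap.

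The makeup of the hexokinase step moved with it. Hk3 supplied 87.7% ± 2.61 of the TPM of the 3 hexokinases in KO and 88.9% ± 1.39 in WT cells under IFN, against 61.8% ± 6.09 in KO and 61.6% ± 8.03 in WT untreated cells (SD, n = 3 each). In IL4-treated cells the share was 73.6% ± 4.73 in KO and 76.1% ± 3.87 in WT cells. IFN libraries lay above every other library, from 86.2 to 90.7% against at most 80.1%. The share within a family does not depend on how libraries are scaled against each other.

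At the next control point, 6-phosphofructokinase commits sugar to glycolysis, and its platelet-type subunit Pfkp (chr13:6579768-6648777, minus strand) had the lowest p of all 33 genes. Pfkp gave 244, 216 and 246 CPM in KO IFN libraries, against 66.3, 69.9 and 76.2 CPM in KO untreated libraries. WT libraries gave 287, 279 and 266 CPM under IFN, against 70.1, 66.3 and 71.2 CPM untreated. The libraries of each group lay close together, and the rise was 3.32-fold in KO (log2 1.73, SE 0.123, adjusted p = 6.10e-08) and 4.01-fold in WT cells (log2 2.00, SE 0.124, adjusted p = 1.55e-08). Pfkl, the liver-type subunit, had 100.4, 106 and 78.1 CPM in KO IFN libraries, against 63.2, 87.9 and 73.8 CPM untreated. Pfkl in WT cells had 81.7, 94.9 and 66.0 CPM under IFN, against 50.5, 53.3 and 52.6 CPM untreated. It rose in WT cells (log2 0.64, SE 0.153, adjusted p = 0.00773) with no overlap, whereas the KO groups overlapped and the difference was not called (log2 0.34, SE 0.152, adjusted p = 0.132). Pfkm, the muscle-type subunit, had 27.5, 22.2 and 22.0 CPM in KO IFN libraries, against 23.6, 25.1 and 15.6 CPM untreated. For WT cells Pfkm had 21.7, 23.8 and 28.8 CPM under IFN, against 19.3, 15.4 and 14.1 CPM untreated. It was called in WT (log2 0.60, SE 0.197, adjusted p = 0.0426) and not in KO cells (log2 0.17, SE 0.195, adjusted p = 0.617). The difference between the genotypes' responses was not called for either subunit; on the log2 scale it was -0.30 for Pfkl and -0.44 for Pfkm (adjusted p = 1 each).

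Pfkfb3 and Pfkfb4 encode bifunctional enzymes that make and break fructose 2,6-bisphosphate, the activator of 6-phosphofructokinase, with Pfkfb3 the form most biased towards making it. Pfkfb3 (chr2:11471433-11554077, minus strand) stood at 128, 175 and 110.1 CPM in KO IFN libraries, against 31.9, 27.1 and 22.3 CPM in KO untreated libraries. In WT libraries it stood at 141, 99.3 and 109.8 CPM under IFN, against 23.0, 18.7 and 18.2 CPM untreated. The lowest IFN library was more than 3 times the highest untreated one in each genotype, and the rise was 5.08-fold in KO (log2 2.35, SE 0.271, adjusted p = 1.22e-05) and 5.84-fold in WT cells (log2 2.55, SE 0.275, adjusted p = 7.23e-06). Pfkfb4 had 37.8, 37.4 and 30.9 CPM in KO IFN libraries, against 51.9, 48.2 and 36.5 CPM untreated. WT cells had 33.3, 34.0 and 35.1 CPM of Pfkfb4 under IFN, against 47.3, 32.5 and 29.2 CPM untreated. Neither difference was called (log2 -0.36, SE 0.178, adjusted p = 0.171 in KO; log2 -0.09, SE 0.179, adjusted p = 0.789 in WT). Pfkfb3 made up 71.0% ± 3.82 of the TPM of the pair in KO and 67.8% ± 2.85 in WT cells under IFN, against 26.3% ± 1.09 in KO and 24.8% ± 1.80 in WT untreated cells.

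**Figure D2:**
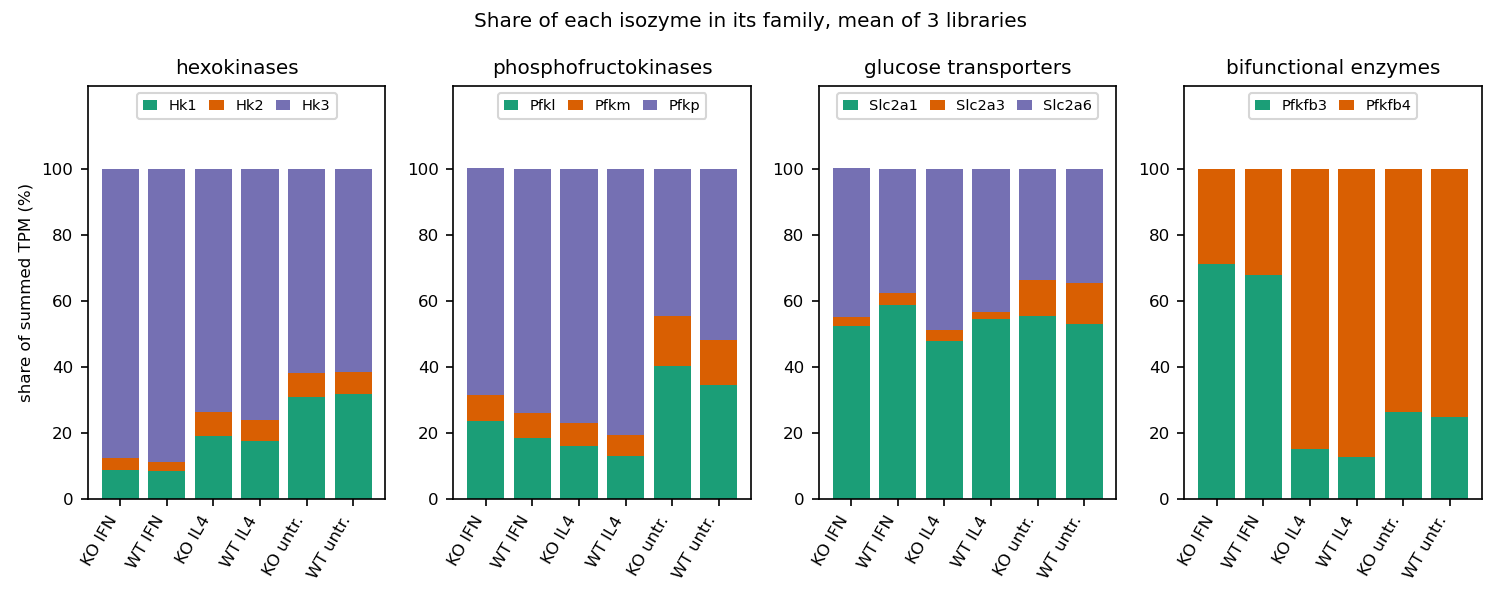
Mean share (%) of each isozyme or transporter in the summed TPM of its family, for 4 families and the 6 groups (n = 3 libraries each). Hk3 fills 87.7 and 88.9% of hexokinase TPM in KO and WT IFN cells, and Pfkfb4 outweighs Pfkfb3 in all groups other than IFN.

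The promoters of Hk3, Pfkfb3 and Pfkp, which had the 3 lowest p-values for IFN in both genotypes, and of Pfkfb4, which rose with IL4, are shown so that they can be compared. Each runs from 250 bases before to 50 bases after an annotated transcript start, on the strand of the gene, 5′ to 3′, from RefSeq on GRCm38.p6; 32 of the 33 genes had at least 1 such entry. Capitals mark matches, on either strand and with overlaps allowed, to ACGTG (the core bound by HIF factors, which reads CACGT on the other strand) or TTCNNNNGAA (the spacing bound by STAT6).
Hk3 (chr13:55021336-55021635, minus strand): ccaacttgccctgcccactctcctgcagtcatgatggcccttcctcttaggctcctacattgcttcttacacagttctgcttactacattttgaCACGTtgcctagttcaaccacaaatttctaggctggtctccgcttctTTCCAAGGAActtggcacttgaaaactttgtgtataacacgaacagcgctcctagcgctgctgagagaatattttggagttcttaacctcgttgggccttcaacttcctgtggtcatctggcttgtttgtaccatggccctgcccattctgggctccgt
Pfkfb3, upstream start (chr2:11553880-11554179, minus strand): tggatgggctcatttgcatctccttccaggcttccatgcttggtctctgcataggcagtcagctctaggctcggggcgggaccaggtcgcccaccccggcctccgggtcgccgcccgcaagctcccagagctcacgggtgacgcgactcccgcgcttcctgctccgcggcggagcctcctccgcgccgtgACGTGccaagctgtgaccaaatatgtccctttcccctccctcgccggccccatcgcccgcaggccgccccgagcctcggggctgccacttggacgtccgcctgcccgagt
Pfkfb3, downstream start (chr2:11502041-11502340, minus strand): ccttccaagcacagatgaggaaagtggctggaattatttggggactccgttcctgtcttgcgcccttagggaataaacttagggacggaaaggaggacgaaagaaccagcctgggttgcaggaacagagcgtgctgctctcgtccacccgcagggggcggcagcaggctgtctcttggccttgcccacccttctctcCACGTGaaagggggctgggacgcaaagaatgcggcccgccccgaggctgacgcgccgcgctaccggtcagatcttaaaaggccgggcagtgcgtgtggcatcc
Pfkp (chr13:6648722-6649021, minus strand): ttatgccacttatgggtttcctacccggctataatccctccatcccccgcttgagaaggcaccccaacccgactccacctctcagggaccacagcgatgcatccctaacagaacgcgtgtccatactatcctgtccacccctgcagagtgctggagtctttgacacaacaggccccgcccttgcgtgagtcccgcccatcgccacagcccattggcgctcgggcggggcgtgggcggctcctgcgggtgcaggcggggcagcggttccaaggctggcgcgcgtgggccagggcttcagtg
Pfkfb4 (chr9:108991652-108991951, plus strand): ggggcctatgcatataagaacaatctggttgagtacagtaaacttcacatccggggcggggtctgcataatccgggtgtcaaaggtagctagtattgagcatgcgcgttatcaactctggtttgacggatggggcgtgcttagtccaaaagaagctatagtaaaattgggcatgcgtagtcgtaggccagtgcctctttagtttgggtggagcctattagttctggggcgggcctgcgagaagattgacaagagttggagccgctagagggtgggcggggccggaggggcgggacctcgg

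ACGTG has 1 match in the Hk3 window and 1 at the upstream start of Pfkfb3, and at its downstream start the palindrome CACGTG gives 2, 1 on each strand. It has no match in either the Pfkp or the Pfkfb4 window. Across the set 18 of 46 promoters (39.1%) hold it, beside 19.6% of all 32851 promoters of the same length. By gene, 15 of 32 (46.9%) hold it in at least 1 promoter, and that share was not computed over all genes. Base composition was not matched. TTCNNNNGAA occurs in 4 of the 46 (8.70%), beside 6.95% of all promoters. These letters are descriptions of the windows, and binding was not measured.

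Of the 3 sugar transporters 2 rose with IFN. Slc2a1 (GLUT1, the main glucose transporter of macrophages) gave 97.6, 145 and 107 CPM in KO IFN libraries, against 51.6, 81.6 and 68.7 CPM in KO untreated libraries. Under IFN WT libraries gave 99.1, 118 and 87.8 CPM, against 37.6, 40.1 and 45.3 CPM untreated. It rose in KO (log2 0.79, SE 0.227, adjusted p = 0.0199) and in WT cells (log2 1.31, SE 0.231, adjusted p = 7.72e-04), with no overlap of groups. Slc2a6 (GLUT6, a hexose transporter of the same family) ranged over 48.8 to 111 CPM in KO and 26.2 to 96.3 CPM in WT IFN libraries, against 23.3 to 36.0 CPM in KO and 15.3 to 23.6 CPM in WT untreated libraries. Its rise was called in KO (log2 1.39, SE 0.446, adjusted p = 0.0354) and WT cells (log2 1.42, SE 0.454, adjusted p = 0.0386), but 1 library of each genotype, KO 5 and WT 6, was far above the other 2. Slc2a3 (GLUT3, a transporter of high affinity) was low throughout, at 7.92, 5.03 and 8.50 CPM in KO IFN libraries, against 13.7, 9.29 and 13.9 CPM untreated. WT cells had 4.89, 6.63 and 6.14 CPM of Slc2a3 under IFN, against 11.3, 8.92 and 9.83 CPM untreated. It missed the threshold in KO (log2 -0.80, SE 0.276, adjusted p = 0.0503) and WT cells (log2 -0.77, SE 0.284, adjusted p = 0.0719) although the groups did not overlap.

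The other glycolytic enzymes of the list were not called. For the most abundant of them, libraries of a group also differed in a repeated way that is described below. Tpi1 (triose phosphate isomerase) ranged over 469 to 510.1 CPM in KO and 358 to 532 CPM in WT IFN libraries, against 277 to 476 CPM in KO and 282 to 413 CPM in WT untreated libraries, and was not called. Aldoc (the minor aldolase C) had 67.7, 57.6 and 54.4 CPM in KO IFN libraries, against 57.2, 133 and 108 CPM untreated. In WT cells Aldoc had 32.7, 47.8 and 39.9 CPM under IFN, against 35.6, 93.1 and 103 CPM untreated. The untreated libraries spread widely for this gene and neither difference was called (log2 -0.73, adjusted p = 0.184 in KO; log2 -0.94, adjusted p = 0.0937 in WT). Pkm averaged 3953 ± 387 CPM in KO and 3909 ± 686 CPM in WT IFN cells, against 3051 ± 1012 CPM in KO and 2461 ± 722 CPM in WT untreated cells. Its log2 fold changes of 0.37 in KO (adjusted p = 0.359) and 0.67 in WT cells (adjusted p = 0.092) were not called. Nor were those of Gpi1 (glucose 6-phosphate isomerase), Aldoa, Pgk1, Pgam1 (phosphoglycerate mutase) and Eno1, which lay between 0.13 and 0.40 in KO and between 0.09 and 0.61 in WT cells. The minor enolases Eno2 and Eno3 stayed at or under 17.8 CPM in every library and were not called, although the fitted change of Eno2 was large with a wide error (log2 -2.18, SE 0.855, adjusted p = 0.0841 in KO; log2 -1.64, SE 0.899, adjusted p = 0.234 in WT).

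Among genes that act on the end products, Pdk1 (pyruvate dehydrogenase kinase 1, which holds pyruvate back from the mitochondrial dehydrogenase) had 81.6, 112 and 81.1 CPM in KO IFN libraries, against 48.2, 73.8 and 67.9 CPM untreated. In WT cells it had 85.9, 97.2 and 80.9 CPM under IFN, against 51.0, 59.9 and 61.0 CPM untreated. It was called in WT (log2 0.62, SE 0.203, adjusted p = 0.0439) and not in KO cells (log2 0.54, SE 0.203, adjusted p = 0.0728), with a difference of responses of -0.08 (adjusted p = 1). Slc16a3 (MCT4, the lactate exporter) had 56.2, 91.9 and 67.5 CPM in KO IFN libraries, against 35.5, 66.2 and 63.3 CPM untreated, and in WT cells 43.7, 84.7 and 65.9 CPM under IFN, against 33.5, 41.5 and 36.8 CPM untreated. IFN and untreated libraries overlapped in KO and not in WT cells, and it was not called (log2 0.39, adjusted p = 0.363 in KO; log2 0.80, adjusted p = 0.0569 in WT). Ldha (log2 0.41, adjusted p = 0.311 in KO; log2 0.24, adjusted p = 0.586 in WT), Ldhb (log2 -0.64, adjusted p = 0.294 in KO; log2 0.08, adjusted p = 0.917 in WT) and Slc16a1 (MCT1, a lactate carrier of both directions; log2 0.38, adjusted p = 0.471 in KO; log2 0.44, adjusted p = 0.398 in WT) were not called either.

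The pentose phosphate genes that were called fell. Taldo1, which acts in the non-oxidative arm, ranged over 525 to 635 CPM in KO and 487 to 634 CPM in WT IFN libraries, against 705 to 1045 CPM in KO and 681 to 1047 CPM in WT untreated libraries. All IFN libraries lay below the untreated ones of their genotype, and it fell in KO (log2 -0.64, SE 0.189, adjusted p = 0.0228) and WT cells (log2 -0.66, SE 0.189, adjusted p = 0.0218). Pgd (6-phosphogluconate dehydrogenase, the second NADPH-making step) gave 445, 449.9 and 436 CPM in KO IFN libraries, against 534, 607 and 660.1 CPM untreated. WT libraries gave 424, 447 and 452 CPM of Pgd under IFN, against 465, 544 and 539.6 CPM untreated. It fell in KO cells (log2 -0.44, adjusted p = 0.0154) and was not called in WT cells (log2 -0.23, adjusted p = 0.214). The other members of the pathway were not called: G6pdx (glucose 6-phosphate dehydrogenase, the entry step), Pgls (the lactonase), Rpia and Rpe (the pentose phosphate isomerase and epimerase) and Tkt (transketolase) lay between -0.42 and 0.31 in KO and between -0.21 and 0.23 in WT cells.

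**Figure D3:**
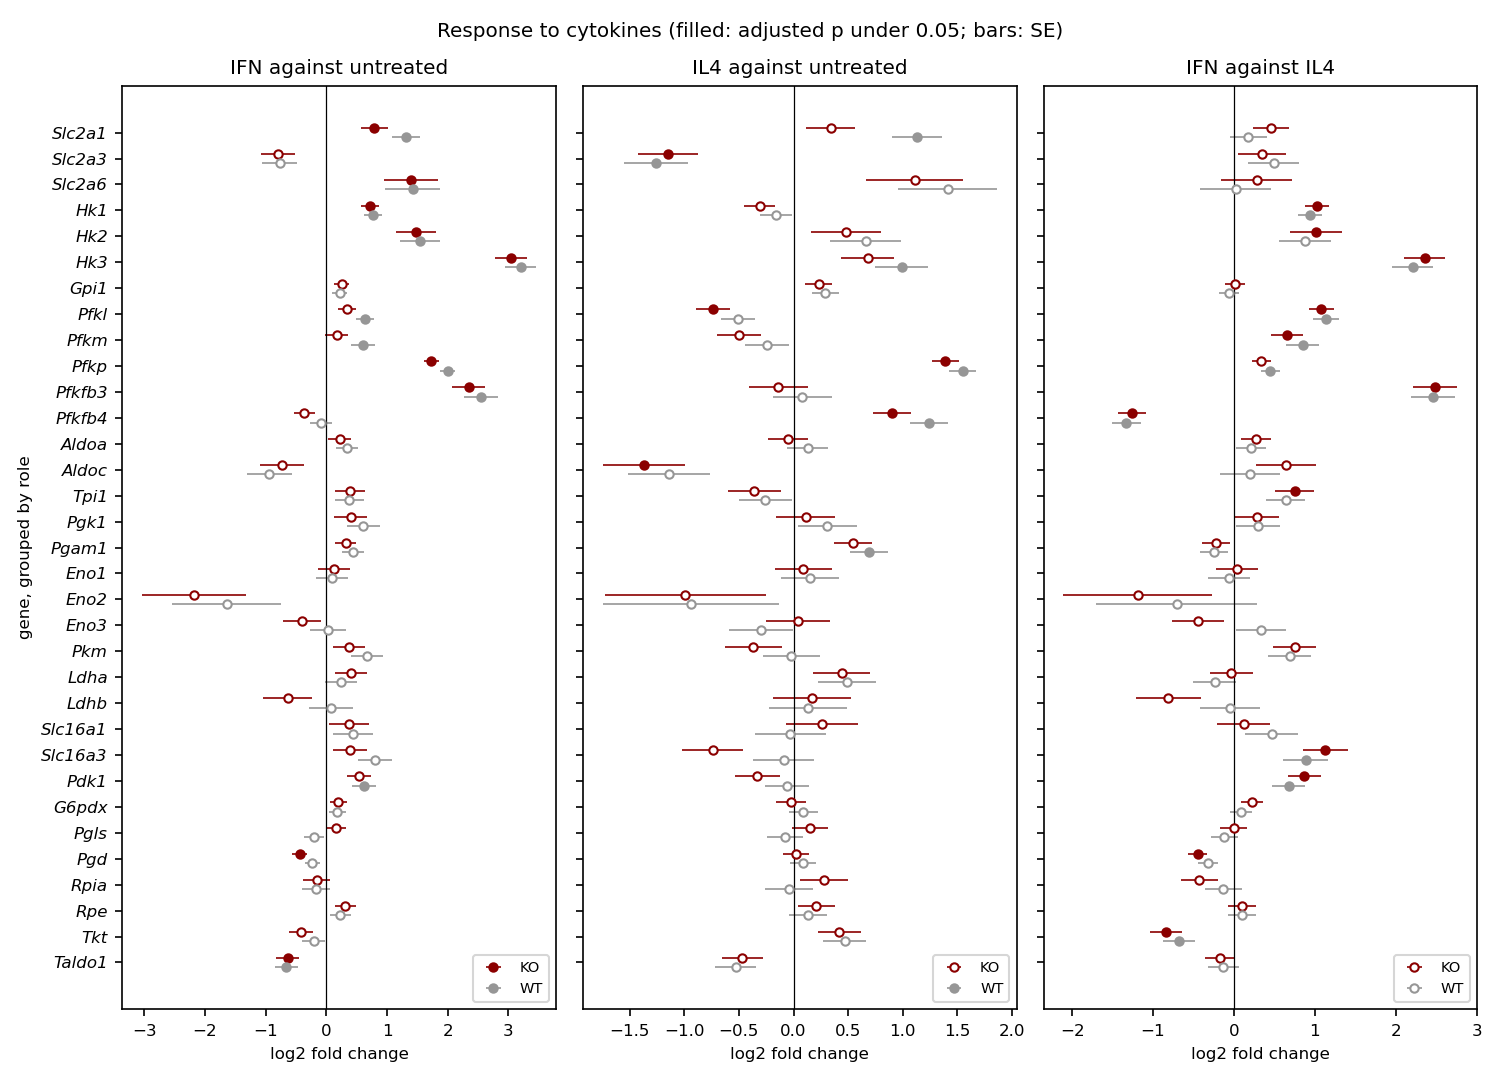
Log2 fold change (points) and SE (bars) of the 33 genes for IFN against untreated, IL4 against untreated and IFN against IL4, in KO (red) and WT cells (grey), with filled points called at adjusted p under 0.05; the legend shows colour only. Hk3, Pfkfb3 and Pfkp stand furthest to the right under IFN, and Pfkp and Pfkfb4 are filled in both genotypes under IL4.

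Calls for Hk1, Hk2, Hk3, Pfkp and Pfkfb3 under IFN held without any one library of their groups. The Slc2a6 call was lost in KO cells without KO untreated library 2 or 3 or KO IFN library 5 or 6 (adjusted p = 0.0502 to 0.182) and in WT cells without WT untreated library 1, 2 or 3 or WT IFN library 6 (adjusted p = 0.0533 to 0.343). That of Taldo1 was lost in KO cells without KO untreated library 2 or 3 or KO IFN library 4 or 5 (adjusted p = 0.0622 to 0.0844) and in WT cells without WT untreated library 2 or 3 or WT IFN library 4 (adjusted p = 0.0912 to 0.109). That of Slc2a1 in KO cells was lost without KO untreated library 1 or 3 or KO IFN library 5 (adjusted p = 0.0526 to 0.107) and that of Pgd without KO untreated library 3 (adjusted p = 0.0505). In WT cells Pfkl lost its call without WT IFN library 5 (adjusted p = 0.0577), Pfkm without WT untreated library 2 or 3 or WT IFN library 4, 5 or 6 (adjusted p = 0.0504 to 0.162) and Pdk1 without WT untreated library 1, 2 or 3 or WT IFN library 4, 5 or 6 (adjusted p = 0.063 to 0.148). The number of calls in WT cells was 7 without WT untreated library 2 and also 7 without library 3, the 2 libraries that resemble each other. In KO cells it was 6 without KO untreated library 3 and 6 without KO IFN library 5. Dendritic cell markers were higher in all 6 IFN libraries, and fibroblast markers were higher in all 3 WT untreated libraries than in the WT IFN or IL4 ones; their part in these results was not tested. Some calls also ended under other settings. On TPM with limma those of Slc2a6 in both genotypes, Slc2a1 in KO and Pfkl, Pfkm and Pdk1 in WT cells were lost (adjusted p = 0.0745 to 0.15). Without the filter on low counts those of Slc2a6 in both genotypes and of Pfkm and Pdk1 in WT cells were lost (adjusted p = 0.0563 to 0.063). When the compared groups were fitted alone, those of Taldo1 in both genotypes, Pgd in KO and Slc2a6 and Pfkm in WT cells were lost (adjusted p = 0.0524 to 0.0879). When Y-linked transcripts (present or not) entered as a covariate, those of Pfkm, Pdk1 and Taldo1 in WT cells were lost (adjusted p = 0.0525 to 0.0828).

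Fewer of the 33 genes were called with IL4, whose comparison uses the same untreated libraries as that of IFN. In KO cells 2 rose and 3 fell (15.2% of the list), and in WT cells 5 rose and 1 fell (18.2%), where 9.48% and 8.49% of all tested genes were called. Over all tested genes 5.35% were called higher and 4.12% lower in KO cells, and 4.96% higher and 3.53% lower in WT cells. Pfkp and Pfkfb4 rose and Slc2a3 fell in both genotypes. The median log2 fold change of the 33 was 0.09 in both KO and WT cells, beside 0.01 and -0.01 over all tested genes, and turned below 0 on unscaled TPM (-0.09 in KO and -0.06 in WT cells), where that of all genes moved to -0.16 and -0.11. It also turned to -0.02 without KO untreated library 1 and to -0.05 without WT untreated library 1. IL4 and untreated libraries did not overlap for 9 of 33 genes in KO and 12 of 33 in WT cells, beside 22.0% and 28.5% of all tested genes.

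Pfkp again had the lowest p, with 189.8, 184 and 185 CPM in KO and 174, 244 and 191 CPM in WT IL4 libraries. These values exceed all 6 untreated values given above by more than a factor of 2, a rise of 2.63-fold in KO (log2 1.39, SE 0.122, adjusted p = 5.29e-06) and 2.93-fold in WT cells (log2 1.55, SE 0.123, adjusted p = 1.61e-06). Pfkp made up 76.9% ± 0.656 of the TPM of the 3 subunits in KO and 80.6% ± 3.23 in WT IL4 cells, against 44.7% ± 4.39 in KO and 51.8% ± 1.59 in WT untreated cells. Under IFN that share was 68.5% ± 3.98 in KO and 73.9% ± 1.79 in WT cells. Pfkl had 42.1, 47.3 and 45.0 CPM in KO and 36.3, 40.1 and 33.8 CPM in WT IL4 libraries, each below every untreated library of its genotype. It fell in KO cells (log2 -0.74, SE 0.154, adjusted p = 0.00571) and missed the threshold in WT cells (log2 -0.51, SE 0.155, adjusted p = 0.0559). Pfkm had 16.4, 14.5 and 14.4 CPM in KO and 16.8, 12.4 and 12.1 CPM in WT IL4 libraries and was not called (log2 -0.50, adjusted p = 0.139 in KO; log2 -0.24, adjusted p = 0.561 in WT).

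Pfkfb4, not Pfkfb3, rose among the bifunctional enzymes. Pfkfb4 had 94.7, 76.4 and 83.1 CPM in KO and 97.5, 76.9 and 83.9 CPM in WT IL4 libraries, all above the untreated libraries of both genotypes (log2 0.90, SE 0.175, adjusted p = 0.0039 in KO; log2 1.24, SE 0.177, adjusted p = 2.99e-04 in WT). Pfkfb3 had 34.8, 22.4 and 16.4 CPM in KO and 26.7, 21.6 and 15.0 CPM in WT IL4 libraries, which overlapped the untreated ones (log2 -0.14, adjusted p = 0.834 in KO; log2 0.08, adjusted p = 0.918 in WT). The share of Pfkfb3 in the TPM of the pair was 15.1% ± 4.51 in KO and 12.8% ± 2.59 in WT IL4 cells. Pfkp rose with both cytokines, while the called bifunctional enzyme was Pfkfb3 under IFN and Pfkfb4 under IL4.

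Of the hexokinases only Hk3 was called with IL4, in WT cells. Hk3 had 443, 373 and 262 CPM in KO and 486, 391 and 330.2 CPM in WT IL4 libraries, and it rose in WT (log2 0.99, SE 0.243, adjusted p = 0.0171) but was not called in KO cells (log2 0.68, SE 0.242, adjusted p = 0.0934). Hk2 had 108, 51.4 and 46.6 CPM in KO and 66.2, 50.4 and 63.6 CPM in WT IL4 libraries and Hk1 103, 116 and 122 CPM in KO and 113, 124 and 117 CPM in WT IL4 libraries. Neither was called (log2 0.48, adjusted p = 0.432 and log2 -0.31, adjusted p = 0.22 in KO; log2 0.66, adjusted p = 0.263 and log2 -0.16, adjusted p = 0.598 in WT). Within Hk2, KO library 7 stood far above the other 2 KO IL4 libraries.

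Of the transporters, Slc2a1 had 86.6, 104 and 64.2 CPM in KO and 81.2, 117 and 70.3 CPM in WT IL4 libraries. It rose in WT cells (log2 1.13, SE 0.230, adjusted p = 0.00531), where IL4 and untreated libraries did not overlap, and was not called in KO cells (log2 0.34, SE 0.227, adjusted p = 0.432), where they did. The difference between these responses had the lowest p among the 33 for IL4 (log2 -0.79, unadjusted p = 0.0261, adjusted p = 1) and was not called. Slc2a3 fell to 4.27, 4.49 and 8.08 CPM in KO and 5.56, 3.97 and 3.03 CPM in WT IL4 libraries, all below the untreated libraries of both genotypes (log2 -1.15, SE 0.278, adjusted p = 0.0152 in KO; log2 -1.26, SE 0.290, adjusted p = 0.0116 in WT). Slc2a6 averaged 60.7 ± 17.4 CPM in KO and 50.0 ± 17.4 CPM in WT IL4 cells, against 28.1 ± 6.86 CPM in KO and 18.8 ± 4.24 CPM in WT untreated cells, and was not called (log2 1.11, adjusted p = 0.145 in KO; log2 1.41, adjusted p = 0.0691 in WT).

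Further down, Pgam1 had 598, 772 and 677 CPM in KO and 612, 757 and 630.3 CPM in WT IL4 libraries, against 364, 489.6 and 556 CPM in KO and 344, 449 and 446 CPM in WT untreated libraries. It was called in WT cells (log2 0.69, SE 0.175, adjusted p = 0.0202) and not in KO cells (log2 0.54, SE 0.174, adjusted p = 0.0654), although the groups did not overlap in either. Aldoc had 27.3, 49.0 and 39.0 CPM in KO and 23.0, 38.1 and 43.8 CPM in WT IL4 libraries. It fell in KO cells (log2 -1.37, SE 0.373, adjusted p = 0.0294) and was not called in WT cells (log2 -1.14, SE 0.373, adjusted p = 0.0744). None of the 5 lactate and pyruvate genes and none of the 7 pentose phosphate genes was called with IL4 in either genotype by edgeR or DESeq2. At an unadjusted p under 0.05 edgeR gave 1 and 2 of them in KO, and 0 and 2 in WT cells. Of all tested genes 22.4% in KO and 20.9% in WT cells passed that limit. Tkt averaged 621 ± 103 CPM in KO and 650.1 ± 99.2 CPM in WT IL4 cells, against 464 ± 109 CPM in KO and 469 ± 84.7 CPM in WT untreated cells (log2 0.42, adjusted p = 0.219 in KO; log2 0.47, adjusted p = 0.176 in WT).

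Calls for Pfkp and Pfkfb4 held without any one library in both genotypes, as did those of Slc2a1 in WT and Pfkl in KO cells. The Slc2a3 call was lost in KO cells without KO untreated library 1 or 3 or KO IL4 library 7 or 8 (adjusted p = 0.0526 to 0.0705) and in WT cells without WT IL4 library 8 or 9 (adjusted p = 0.0535 to 0.0657). In WT cells that of Hk3 was lost without WT untreated library 2 or 3 or WT IL4 library 7 (adjusted p = 0.0802 to 0.0855) and that of Pgam1 without WT untreated library 1 or WT IL4 library 8 (adjusted p = 0.0971 to 0.108). In KO cells that of Aldoc was lost without KO untreated library 2 or 3 or KO IL4 library 7 or 9 (adjusted p = 0.0702 to 0.135), and 3 genes were called without KO IL4 library 7, in which markers of dividing cells were low. When the 2 KO groups were fitted alone, 2 genes were called, and the calls of Slc2a3, Pfkl and Aldoc were lost (adjusted p = 0.064 to 0.123). On TPM with limma those of Pfkfb4 in KO and Hk3 in WT cells were lost (adjusted p = 0.0817 to 0.086).

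Set directly against each other, the cytokines separated 12 of 33 genes in KO cells (9 higher and 3 lower with IFN, 36.4%) and 10 of 33 in WT cells (8 higher and 2 lower, 30.3%). Of all tested genes 22.2% and 21.1% were called, 12.4% higher and 9.87% lower in KO and 11.8% higher and 9.28% lower in WT cells. The median log2 fold change of the 33 was 0.27 in KO and 0.20 in WT cells, beside -0.03 and -0.02 over all tested genes. Groups did not overlap for 18 of 33 genes in KO and 15 of 33 in WT cells, beside 32.4% and 36.1% of all tested genes. Both lists of calls hold Hk1, Hk3, Pfkl, Pfkm, Pfkfb3, Pdk1 and Slc16a3, higher with IFN, and Pfkfb4 and Tkt, lower with IFN.

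Pfkfb3 was 5.60-fold higher with IFN than with IL4 in KO (log2 2.49, SE 0.274, adjusted p = 5.52e-06) and 5.52-fold higher in WT cells (log2 2.46, SE 0.275, adjusted p = 6.74e-06), while Pfkfb4 was lower in KO (log2 -1.26, SE 0.179, adjusted p = 7.03e-05) and WT cells (log2 -1.33, SE 0.179, adjusted p = 4.43e-05). Hk3 was 5.13-fold and 4.62-fold higher with IFN in KO (log2 2.36, SE 0.252, adjusted p = 4.05e-06) and WT cells (log2 2.21, SE 0.251, adjusted p = 8.04e-06). Hk1 was higher with IFN in KO (log2 1.03, adjusted p = 6.63e-05) and WT cells (log2 0.94, adjusted p = 1.72e-04), and Hk2 was called in KO (log2 1.01, adjusted p = 0.0332) but not in WT cells (log2 0.88, adjusted p = 0.0655). The liver-type and muscle-type subunits were both higher with IFN: Pfkl in KO (log2 1.08, adjusted p = 7.55e-05) and WT cells (log2 1.14, adjusted p = 5.28e-05), and Pfkm in KO (log2 0.66, adjusted p = 0.024) and WT cells (log2 0.85, adjusted p = 0.00566). Pfkp, raised by both cytokines, differed less between them, and was called in WT (log2 0.45, adjusted p = 0.0119) and not in KO cells (log2 0.34, adjusted p = 0.054). Slc2a1 was not called between the cytokines (log2 0.46, adjusted p = 0.178 in KO, with an interval of 2 SE either way of 0.00 to 0.91; log2 0.18, adjusted p = 0.658 in WT, -0.27 to 0.64).

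At the end of the pathway, Slc16a3 had 25.8, 32.4 and 40.6 CPM in KO and 26.4, 39.9 and 38.5 CPM in WT IL4 libraries, all below the IFN libraries given above. It was higher with IFN in KO (log2 1.13, SE 0.280, adjusted p = 0.00749) and WT cells (log2 0.89, SE 0.279, adjusted p = 0.0311). Pdk1 had 41.3, 63.2 and 46.6 CPM in KO and 50.3, 69.1 and 45.7 CPM in WT IL4 libraries, and was likewise higher with IFN in KO (log2 0.87, SE 0.205, adjusted p = 0.00544) and WT cells (log2 0.68, SE 0.204, adjusted p = 0.0254). Tkt had 335, 306 and 400.0 CPM in KO and 386, 407 and 426 CPM in WT IFN libraries, against 503, 677 and 685 CPM in KO and 536, 701 and 714 CPM in WT IL4 libraries. It was lower with IFN with no overlap in KO (log2 -0.84, SE 0.198, adjusted p = 0.00517) and WT cells (log2 -0.68, SE 0.197, adjusted p = 0.0205). Pgd had 558, 673 and 592 CPM in KO and 509, 575 and 569.5 CPM in WT IL4 libraries, and was lower with IFN in KO (log2 -0.45, adjusted p = 0.0111) but not called in WT cells (log2 -0.32, adjusted p = 0.07). Tpi1 was higher with IFN in KO (log2 0.75, adjusted p = 0.0357) but not called in WT cells (log2 0.64, adjusted p = 0.0772). Pkm missed the threshold in KO (log2 0.75, adjusted p = 0.0534) and WT cells (log2 0.69, adjusted p = 0.077) without overlap, and Ldha was not called (log2 -0.03 in KO and -0.24 in WT cells).

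Calls for Hk1, Hk3, Pfkl, Pfkfb3 and Pfkfb4 in both genotypes held without any one library, as did those of Slc16a3, Pdk1 and Tkt in KO and Pfkm in WT cells. In KO cells Hk2 lost its call without KO IFN library 4 or 5 or KO IL4 library 8 or 9 (adjusted p = 0.0872 to 0.136), Pfkm without KO IFN library 4 or KO IL4 library 8 or 9 (adjusted p = 0.0761 to 0.115), Tpi1 without KO IFN library 4, 5 or 6 or KO IL4 library 7 or 8 (adjusted p = 0.0641 to 0.146) and Pgd without KO IL4 library 8 (adjusted p = 0.0655). In WT cells Slc16a3 lost it without WT IFN library 5 or 6 or WT IL4 library 7 or 9 (adjusted p = 0.0585 to 0.173), Pdk1 without WT IFN library 5 or WT IL4 library 7 or 9 (adjusted p = 0.0853 to 0.12), Tkt without WT IFN library 4 or 5 or WT IL4 library 8 or 9 (adjusted p = 0.0616 to 0.0914) and Pfkp without WT IL4 library 7 or 9 (adjusted p = 0.0601 to 0.0719). The count was 6 in WT cells without WT IL4 library 9, and in KO cells 8 without KO IL4 library 8. The median in KO cells was 0.17 without KO IL4 library 7 and 0.06 on unscaled TPM, and in WT cells 0.12 without WT IL4 library 7 and 0.35 without WT IL4 library 8. When the compared groups were fitted alone, the calls of Hk2, Tpi1 and Pgd in KO and Pfkp in WT cells were lost (adjusted p = 0.0808 to 0.0895), and on TPM with limma those of Hk2 and Pfkm in KO cells (adjusted p = 0.0725 to 0.137).

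**Figure D4:**
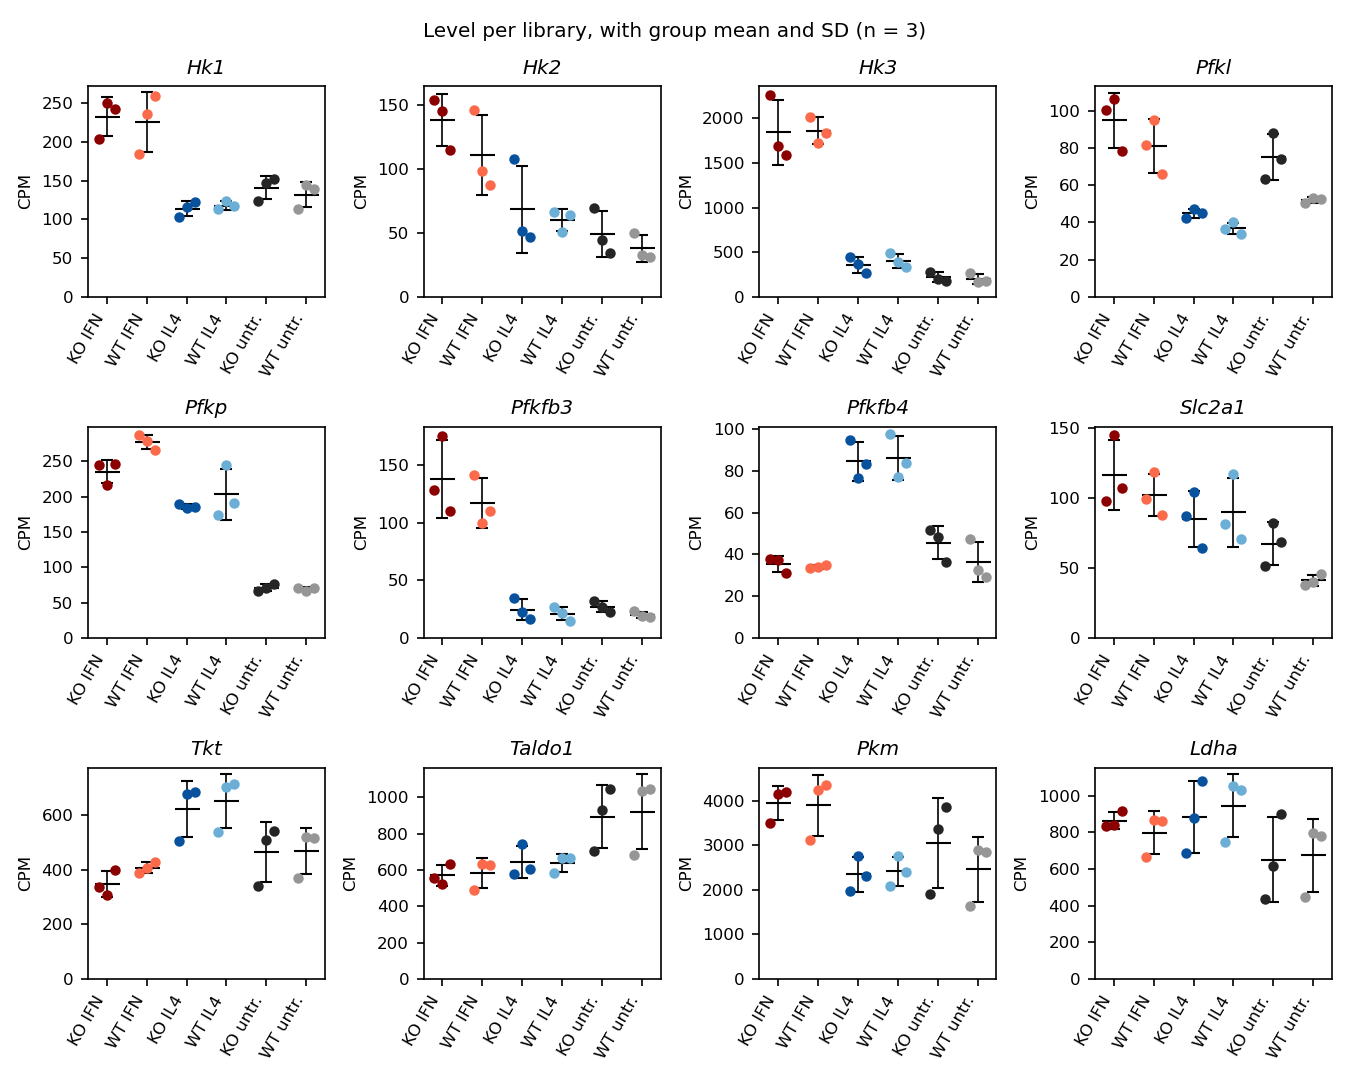
CPM of 12 genes in each library (points), with the mean and SD of each group (n = 3; horizontal line and bars). Hk3 and Pfkfb3 are high with IFN, Pfkfb4 and Tkt are highest with IL4, Pfkp is high with both cytokines, and Taldo1 is highest in untreated cells.

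The study set KO against WT cells. With no term for the library number, edgeR called 0 of the 33 genes between them. This held with IFN, with IL4, untreated and over the mean of the 3 treatments. At an unadjusted p under 0.05 that fit gave 0, 0, 2 and 1 members, beside 5.79%, 2.46%, 7.54% and 10.2% of all tested genes. DESeq2 called 0, 0, 0 and 1 members, beside 42, 30, 83 and 201 of all 12514 genes. With the library number as a block, edgeR called 1 member untreated (Slc2a1, adjusted p = 0.0382). It also called 1 over the mean (Pfkl, adjusted p = 0.0187). By edgeR without the block few genes of any kind were called. They were 0.0639% with IFN (0.0240% higher and 0.0400% lower) and 0.0639% with IL4 (0.0240% higher and 0.0400% lower). The share was 0.0799% untreated (0.0160% higher and 0.0639% lower) and 0.392% over the mean (0.232% higher and 0.160% lower). The median log2 fold change of the 33 was 0.05 with IFN, -0.01 with IL4, 0.14 untreated and 0.05 over the mean, beside 0.02, 0.00, 0.01 and 0.01 for all tested genes. The sign of these medians was not stable with cytokines: it was -0.04 with IFN without WT IFN library 4 and 0.02 to 0.08 with IL4 without KO IL4 library 7 or 9 or WT IL4 library 8 or 9. The untreated median stayed above 0 but was 0.07 without WT untreated library 1, 0.08 without KO untreated library 2, 0.22 without WT untreated library 3, and 0.23 without WT untreated library 2 or without KO untreated library 1. On TPM it was 0.30. With Y-linked transcripts as a covariate the medians were -0.06 with IFN, -0.12 with IL4, 0.14 untreated and -0.06 over the mean. KO and WT libraries did not overlap for 3, 2 and 3 members with IFN, with IL4 and untreated, beside 9.33%, 5.04% and 14.1% of all tested genes.

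Pfkl had the lowest p with IL4, untreated and over the mean. Its untreated values of 63.2, 87.9 and 73.8 CPM in KO and 50.5, 53.3 and 52.6 CPM in WT libraries did not overlap (log2 0.52, SE 0.152, adjusted p = 0.324; 2 SE either way gives 0.22 to 0.83). Over the mean of the treatments it was 0.35 higher in KO cells on the log2 scale (SE 0.0885, adjusted p = 0.137); DESeq2 gave 0.36 with an adjusted p of 0.0202. Slc2a1 was the other member with an unadjusted p under 0.05 in untreated cells, with 51.6, 81.6 and 68.7 CPM in KO and 37.6, 40.1 and 45.3 CPM in WT libraries (log2 0.71, SE 0.229, adjusted p = 0.393; 0.25 to 1.17). All 3 KO values lay above all 3 WT values. With IFN the lowest p belonged to Pfkp, at 244, 216 and 246 CPM in KO and 287, 279 and 266 CPM in WT libraries, the KO values all below the WT ones (log2 -0.24, SE 0.119, adjusted p = 0.867; -0.48 to 0.00). For the genes with the strongest cytokine responses the intervals of 2 SE were -0.49 to 0.47 for Hk3 and -0.27 to 0.75 for Pfkfb3 with IFN, and -0.37 to 0.32 for Pfkfb4 with IL4, on the log2 scale. In untreated cells the WT libraries carried more fibroblast marker RNA and KO library 1 less RNA of dividing cells, as given above; their part was not tested.

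The tests of a difference between the genotypes' responses called 0 of 33 members and 0 of 12514 genes by edgeR, for IFN and for IL4 alike. At an unadjusted p under 0.05 edgeR gave 0 members for IFN and 1 for IL4, beside 4.93% and 1.99% of all tested genes. DESeq2 called 0 members for either, and of all tested genes 26 for IFN and 1 for IL4. The median difference, KO response minus WT response, was -0.12 for IFN and -0.15 for IL4, and all 12 upper glycolysis genes were below 0 for IL4. Both differences subtract the same untreated libraries, in which 22 of 33 members were higher in KO cells. For Slc2a1 the difference was -0.52 for IFN (2 SE either way, -1.16 to 0.13) and -0.79 for IL4 (-1.43 to -0.15). For Hk3 it was -0.15 (-0.83 to 0.53) and -0.30 (-0.99 to 0.38), and for Pfkfb3 -0.20 (-0.94 to 0.54) and -0.22 (-0.98 to 0.54). These intervals are wide enough to hold differences of about 2-fold for some members, so calls made in 1 genotype and not in the other above are not shown to differ.

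**Figure D5:**
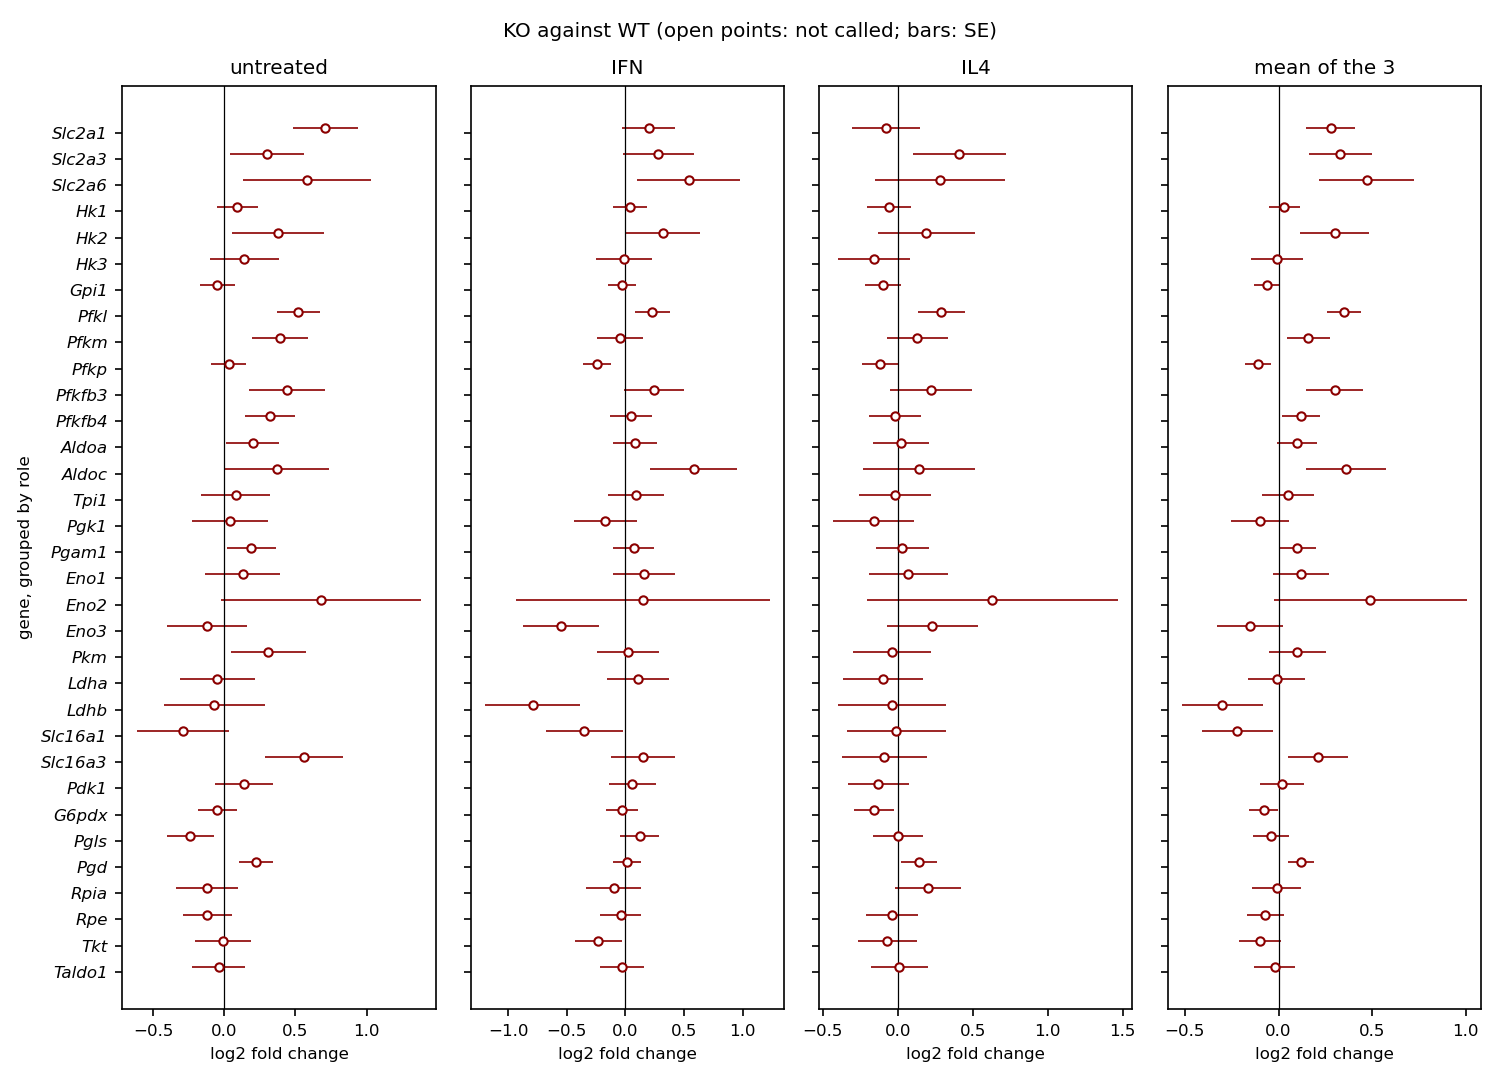
Log2 fold change of KO against WT (points) with SE (bars) for the 33 genes untreated, with IFN, with IL4 and over the mean of the 3 treatments. Open points mark genes that were not called, which is all of them; Pfkl and Slc2a1 lie furthest from 0 relative to their SE in untreated cells.

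The most abundant enzymes differed between libraries of a group in a repeated way. For Aldoa, Tpi1, Pgk1, Pgam1, Eno1, Pkm and Ldha, chosen after their values were seen, the lowest-numbered library of each group (1, 4 or 7) was the lowest for 7 of 7 genes in 5 groups and for 6 of 7 in KO IL4 cells. Pkm in KO untreated libraries was 1918, 3369 and 3865 CPM and in WT untreated libraries 1628, 2898 and 2856 CPM. Ldha was 438, 614 and 899 CPM in KO and 446, 798 and 779.9 CPM in WT untreated libraries. Library 1 was the lowest of both genotypes for both genes. Summed over the 33 genes, KO untreated libraries held 8634, 12523 and 13958 CPM and WT untreated libraries 8094, 11836 and 11767 CPM. Under IFN the sums were 14803, 15737 and 15455 CPM in KO and 13214, 15976 and 15875 CPM in WT cells, above every untreated library except that WT IFN library 4 lay below KO untreated library 3. In deposited TPM the sums overlapped in KO cells (11229, 12157 and 12234 with IFN, against 9763, 13665 and 14377 untreated) and not in WT cells (11647, 13793 and 11694, against 8278, 11091 and 10892). The median IFN response of the 33 in KO cells was 0.12 without KO untreated library 1, and that in WT cells 0.21 without WT untreated library 1. Whether the numbers mark a batch is not given in the sources used here. The cytokine fits held no term for this order, so it stayed in the spread against which these enzymes were tested. Its part in which of them were called was not tested.

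Genes around these pathways were counted in the same way. Of 56 neighbouring genes of sugar metabolism 43 were tested, and with IFN 5 rose and 4 fell in KO and 4 rose and 2 fell in WT cells. Their share of calls, 20.9% and 14.0%, lay near or under the 21.6% and 18.6% of all tested genes. Gpd2 (the mitochondrial glycerol 3-phosphate dehydrogenase, which passes electrons from cytosolic NADH to the respiratory chain) rose with log2 1.31, adjusted p = 5.80e-04 in KO and log2 1.18, adjusted p = 0.00157 in WT cells. Pgm2 rose too (log2 0.49, adjusted p = 0.0116 in KO; log2 0.59, adjusted p = 0.00384 in WT). Pgm2l1 (glucose 1,6-bisphosphate synthase) fell to 13.4, 17.4 and 13.8 CPM in KO and 17.3, 19.9 and 9.51 CPM in WT IFN libraries, against 50.7, 69.6 and 68.0 CPM in KO and 44.1, 51.7 and 48.7 CPM in WT untreated libraries (log2 -2.07, adjusted p = 7.24e-06 in KO; log2 -1.62, adjusted p = 9.06e-05 in WT). Galm (the mutarotase that interconverts sugar anomers) fell with IFN (log2 -0.60, adjusted p = 0.0157 in KO; log2 -0.72, adjusted p = 0.00537 in WT) and rose with IL4 (log2 0.91, adjusted p = 0.0017 in KO; log2 0.93, adjusted p = 0.00122 in WT). With IL4 3 rose and 4 fell in KO and 1 rose and 0 fell in WT cells, 16.3% and 2.33% of the list beside 9.48% and 8.49% of all tested genes. Those that fell in KO cells include Pcx (pyruvate carboxylase; log2 -1.32, adjusted p = 0.00796) and H6pd (the pentose phosphate dehydrogenase of the endoplasmic reticulum; log2 -0.98, adjusted p = 0.00243). None was called between KO and WT cells by edgeR or DESeq2. At an unadjusted p under 0.05 edgeR gave 0 with IFN, 1 with IL4 and 2 untreated, beside 5.79%, 2.46% and 7.54% of all tested genes.

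HIF1 is the factor known to drive many glycolytic genes in hypoxic and activated myeloid cells, so genes of its response outside glycolysis were counted beside the 33. Of 32 listed 30 were tested, and with IFN 4 rose and 6 fell in KO and 2 rose and 6 fell in WT cells, 33.3% and 26.7% of the list beside 21.6% and 18.6% of all tested genes. Higher calls took 12.6% of all tested genes in KO and 11.1% in WT cells, and lower calls 8.93% and 7.55%. Hif1a itself gave 207, 236 and 193 CPM in KO and 215, 188 and 192 CPM in WT IFN libraries, against 75.0, 98.9 and 89.8 CPM in KO and 68.7, 87.8 and 86.4 CPM in WT untreated libraries. It rose in KO (log2 1.27, SE 0.138, adjusted p = 6.77e-06) and WT cells (log2 1.29, SE 0.139, adjusted p = 6.62e-06) with no overlap. Some other genes known to be induced by hypoxia fell with IFN. Among them were Ndrg1 (log2 -1.41, adjusted p = 2.61e-04 in KO; log2 -2.06, adjusted p = 1.10e-05 in WT) and Mxi1, an antagonist of MYC (log2 -0.99, adjusted p = 6.05e-04 in KO; log2 -1.46, adjusted p = 1.89e-05 in WT). Others of this kind were higher. Mif gave 246, 194 and 213 CPM in KO IFN libraries, against 80.7, 106 and 145 CPM untreated. Bnip3 averaged 56.3 ± 9.59 CPM in KO IFN cells, against 34.9 ± 5.83 CPM untreated, and neither gene overlapped. Vegfa gave 174, 189 and 73.2 CPM in KO IFN libraries, against 109, 53.8 and 17.6 CPM untreated, with overlap. In WT cells the means of Mif, Bnip3 and Vegfa were also higher with IFN, but libraries overlapped. Test results of these genes with IFN are not given here, so called and uncalled rises are not told apart. With IL4 2 rose and 3 fell in KO and 2 rose and 4 fell in WT cells, 16.7% and 20% of the list beside 9.48% and 8.49% of all tested genes. Bhlhe40, a transcriptional repressor, rose (log2 2.46, adjusted p = 0.0041 in KO; log2 2.93, adjusted p = 0.00134 in WT). So did Vhl, which marks HIF proteins for degradation (log2 1.08, adjusted p = 2.16e-04 in KO; log2 0.77, adjusted p = 0.00311 in WT). Vhl was higher with IFN too, at 40.1, 32.1 and 32.0 CPM in KO cells, against 23.1, 19.6 and 23.6 CPM untreated. In WT cells it had 37.1, 37.2 and 30.8 CPM with IFN, against 23.2, 23.3 and 26.1 CPM untreated. Between the genotypes 1 of the 30 was called, over the mean of the treatments: Egln3, a prolyl hydroxylase that acts on HIF proteins, was higher in KO cells (log2 1.52, SE 0.272, adjusted p = 0.0176). It averaged 2.44 ± 1.03 CPM in KO and 0.529 ± 0.331 CPM in WT cells with IFN, 1.61 ± 0.983 and 0.631 ± 0.106 CPM with IL4, and 4.38 ± 0.563 and 2.10 ± 0.207 CPM untreated.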

How the data were processed

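Poly-A RNA of 18 libraries was sequenced; reads were processed with Bowtie 0.12.8 and RSEM 1.2.3 on mm10, per the submitters' processing notes. The authors deposited, per the file headers, expected counts and TPM for each of 21954 genes. A median-normalized TPM table was not used here. Of the deposited expected counts 21.5% were not whole, and they were rounded. RSEM divides reads that fit several places, and several abundant glycolytic genes have near-identical pseudogenes, so their estimates are uncertain to that extent. Whether the counting used strand is not given in the sources used here, so reads of overlapping or antisense genes cannot be told apart. Columns of values without a sample numbered 0.

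Counts were filtered with filterByExpr (12514 genes left), TMM-scaled and compared in 12 contrasts with edgeR 4.0.16 under R 4.3.3 (quasi-likelihood, robust), in 1 fit of the 18 libraries that had a coefficient for each group. P-values were adjusted by Benjamini and Hochberg over all tested genes within a comparison, and a gene was called at 0.05. The biological coefficient of variation was 0.301. Standard errors were obtained by dividing the absolute log2 fold change by the root of the F statistic. Fold changes are KO over WT, cytokine over untreated, and IFN over IL4. Isozyme shares use the deposited TPM. DESeq2 1.42.0, limma 3.58.1 on log2 of TPM plus 1 or 0.1, other scaling, no filter, a covariate for Y-linked transcripts, fits of only the compared groups and the omission of single libraries were alternatives, and the older quasi-likelihood method of edgeR was added after seeing the data. The method was also run on data simulated at the depth of these libraries. Its recovery of set changes is not reported here, so this run does not tell how small a change could be missed. Positions come from GENCODE vM21 on GRCm38 and promoters from RefSeq on GRCm38.p6.

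The members and lists were chosen with earlier results of these data known. Values of every library are given for the 16 of 19 called members with the lowest p, means or ranges for the others. Genes of other lists are named where called, up to 6 with the lowest p per list and comparison, and Rpl13a as the targeted gene. Gapdh was added as a glycolytic gene outside the 33, and Bnip3, Mif and Vegfa to stand beside the genes that fell. The library numbers were examined as a pairing of KO and WT libraries through the correlation of deviations from group means in 9712 genes whose log2 CPM averaged more than 2. Same numbers gave 0.702, 0.561 and 0.475 for IL4, the highest value of each KO library there. Same numbers also gave the highest value for KO libraries 1, 2, 4 and 6, and not for KO libraries 3 and 5. Whether untreated and IFN libraries are paired is not given in the sources used here. With the number as a block, 0 members were called between KO and WT cells with IL4, as without it. Untreated and over the mean of the treatments the block gave 1 call each, described below.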

Additional observations from a re-analysis of the deposited data

How the results depend on the processing

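Over the 12 comparisons the number of called members was recomputed under 195 alternatives: 187 stayed within 1.5 times the count reported and 8 did not. With the replicate number as a block, 1 member was called between KO and WT untreated cells (Slc2a1, log2 0.69, adjusted p = 0.0382) and 1 over the mean of the treatments (Pfkl, log2 0.34, adjusted p = 0.0187). Outside IL4 the same-number correlations were 0.746, 0.0725 and 0.573 for untreated and 0.371, 0.0356 and 0.265 for IFN libraries. KO untreated library 3 correlated more with WT untreated library 2 (0.61), which resembled WT untreated library 3. KO IFN library 5 correlated more with WT IFN library 6 (0.103). The numbers thus match some of these libraries and not others. The block left the other genotype comparisons at 0 calls. DESeq2 called 1 member over the mean (Pfkl, adjusted p = 0.0202). Fitting only the compared groups gave 2 calls for IL4 in KO cells. Leaving out single libraries gave 6 to 9 calls for IFN in KO and 7 to 10 in WT cells, 3 to 5 for IL4 in KO and 4 to 7 in WT cells, 8 to 12 for IFN against IL4 in KO and 6 to 10 in WT cells, and 0 in the genotype comparisons and differences of responses. The causes were not tested. Of 53 called gene results, recomputed 742 times, 631 kept the call, 111 lost it with the same direction and 0 changed sign; 29 kept it throughout. The older method of edgeR, added after seeing the data, gave the same counts in all 12 comparisons. Of 195 recomputed medians 175 moved by less than the spread and 20 by more. The spread was the SD, between libraries of the first-named groups, of the members' median difference from the other groups. Over the mean and for differences of responses it also holds differences between treatments. A move of the KO against WT median over the mean from 0.05 to -0.06 counted as less than it. On unscaled TPM (pseudocount 1) the median of all genes shifts to -0.31 for IFN and -0.16 for IL4 in KO cells, and that of the members relative to all genes is 0.24 and 0.08, against 0.34 and 0.08 with TMM. The median for KO against WT cells was -0.06 with IFN, -0.12 with IL4 and -0.06 over the mean with the Y-linked covariate, and -0.07 with IFN and 0.30 untreated on TPM. DESeq2 called 10 of the neighbouring genes with IFN and 3 with IL4 in WT cells, against 6 and 1 by edgeR. Over all tested genes it called 2774 and 1420, against 2332 and 1063 by edgeR. Sequencing depth was not varied, so its part in the low number of genotype calls was not tested.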
